A study of Mus musculus with 32 samples.

Results

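The response of BALB/c mesentery to pristane 18 days after injection was set against the response 3 days after injection. The comparison is a difference of responses, in which each set of treated arrays is first read against untreated BALB/c arrays of its own code series and the day 3 response is then subtracted from the day 18 response. The arrays were chosen by strain, time and title code, and 13 of the 32 arrays of the series take part. They are 4 BALB/c arrays at day 18 (codes bmsnmix1 to bmsnmix4), 3 untreated BALB/c arrays of the same code series (the day 18 controls), 3 BALB/c arrays at day 3 and 3 untreated BALB/c arrays of the 177-203msn code series (the day 3 controls). Replicate 2 of the untreated bmsnmix arrays was left out because it reads as pancreatic tissue. Treated mice were given 0.5 ml of pristane (TMPD) into the peritoneal cavity, and the labels name no allele or transgene. In each strain the untreated mice were prepared together with the treated ones, per the labels, which do not give sex or age, or say what the codes stand for. The rest of the series holds DBA and F1 hybrid mice, of which the DBA arrays at both times, 3 per group with 3 controls of their own code series for each time (the DBA day 18 and DBA day 3 controls), serve for a test between strains.

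Pristane is a mineral oil hydrocarbon that is taken up by phagocytes and sets off a long-lasting granulomatous inflammation on the peritoneal surfaces, of which the mesentery is one. Neutrophils and monocytes arrive first, monocytes then become macrophages that surround the oil, and lymphocytes and plasma cells collect in the granulomas. In BALB/c mice these granulomas are known as the place where plasmacytomas later grow, with interleukin-6 from the inflamed tissue as a growth factor.

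Each value is the signal of a probe set, in the linear units of the deposited table. A response is a difference of mean log2 signals, treated minus control, and a gene is "called", or said to rise or fall, where limma gave it a Benjamini-Hochberg adjusted p under 0.05 over the 12947 genes tested. Nothing in the labels says that arrays of a group came from separate mice, so the p-values measure the spread between these arrays. Signals of whole tissue cannot tell fewer cells of a type from less RNA per cell.

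Arrays of a group correlated with each other at 0.961 to 0.988 over genes. Markers of mesenteric tissue were present on all 13 arrays, with adipocyte markers summing to 80525 to 139756 at day 18 and 207963 to 218099 on its controls, and to 127238 to 154218 at day 3 and 229270 to 309508 on its controls. The 2 sets of arrays differ in 4 measures other than the day. Pancreatic acinar markers summed to 2533.5 to 248022 at day 18 and 1692.1 to 28311.4 on its controls, against 1477.8 to 7844.7 at day 3 and 431.9 to 711.2 on its controls. Xist, the transcript that marks the inactive X chromosome of females, was high on 2 of 4 day 18 arrays and 1 of 3 of their controls, and on all day 3 arrays and their controls. The ratio of the 3' to the 5' beta-actin probe set, a sign of RNA quality, was 1.12 to 1.22 at day 18 and 1.29 to 1.33 on its controls, against 1.63 to 2.21 at day 3 and 2.10 to 2.60 on its controls. A clock measure (log2 signals of Per2, Per3, Tef and Hlf over those of Arntl and Npas2) also separated the 2 sets. Between the 2 sets of untreated controls 3839 genes were called, 29.7% of those tested. The comparison cancels a shift that a set of treated arrays shares with its own controls, and the part of these measures in what remains was not tested beyond the alternatives given in the closing section.

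**Figure D1:**
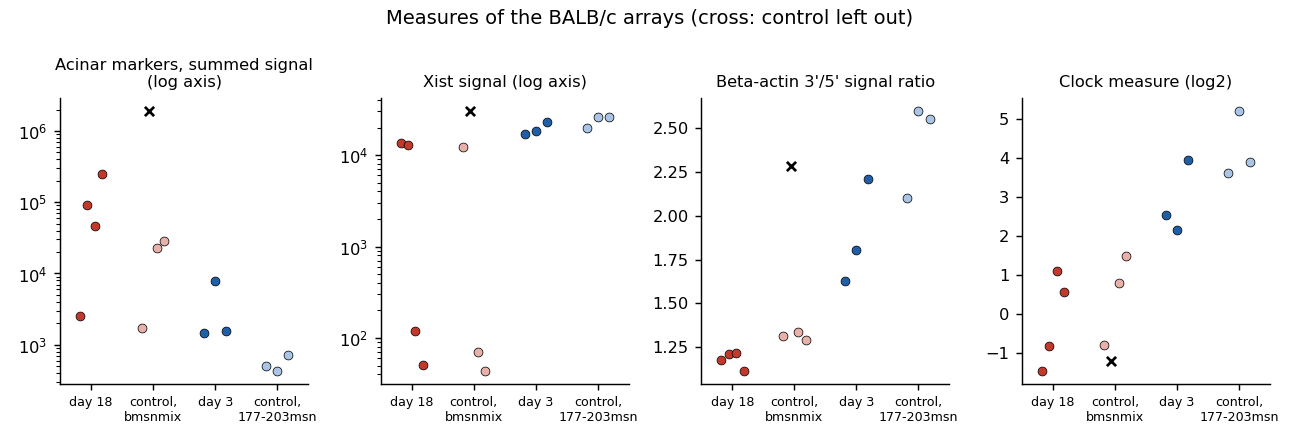
Measures of the BALB/c arrays by group, 1 point per array: summed signal of pancreatic acinar markers (log axis), Xist signal (log axis), ratio of the 3' to the 5' beta-actin signal, and the clock measure in log2 units. The cross is the control left out, at a summed acinar signal of 1.91e+06; the day 3 arrays and their controls lie above the day 18 arrays and the controls used in the clock measure and in the actin ratio.

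Day 18 and day 3 shared most of the response. At day 18, 6278 genes were called against the untreated controls (48.5%), 2985 of them higher (23.1%) and 3293 lower (25.4%). At day 3, 5755 were called (44.5%), 2910 higher (22.5%) and 2845 lower (22%). Of the genes higher at day 18, 74.3% were also higher at day 3, and 76.3% of those higher at day 3 were higher at day 18. For lower genes these shares were 69.2% and 80.1%. The 2 responses share no array, and across genes, which are not independent replicates, they correlated at 0.858. The difference of the responses was called in 110 genes, 0.85% of those tested, 55 higher (0.425%) and 55 lower (0.425%) at day 18 than at day 3. Without regard to multiple testing, 1771 genes had a p under 0.05. All 110 belong to the 3498 genes (27%) in which every day 18 array, less the mean of its controls, lay beyond every day 3 array taken likewise. The median difference over all genes was -0.02 log2 units.

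**Figure D2:**
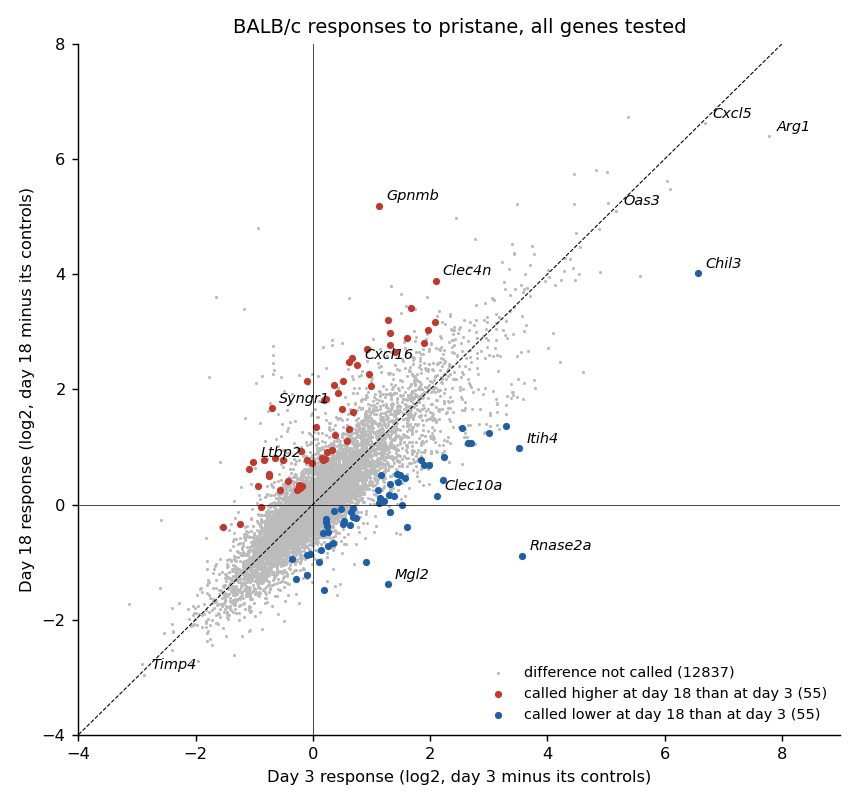
Day 18 response against day 3 response, both in log2 units of treated minus control, with 1 point per gene tested and the diagonal dashed. Most points follow the diagonal; 55 genes called higher at day 18 (red) lie above it, led by Gpnmb, and 55 called lower (blue) lie below it, led by Rnase2a.

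Many of the calls did not hold when 1 array was left out. Of the 110 calls, 38 held whichever of the 13 arrays was left out, 18 higher and 20 lower, and 72 were lost without at least 1 array. In 56 of the 110 the 2 sets of controls were themselves called different. The count was 36 on arrays with high Xist alone, 55 with a term for the actin ratio, 47 with the left-out control kept, and 53 to 160 with 1 array left out. Of the 36 on high-Xist arrays, which leave 2 arrays at day 18 and 1 of their controls, 19 were among the 110. Of the 39 called genes described here, 13 kept their call on those arrays: Gpnmb, Clec4n, Cxcl16, Syngr1, Fnip2, Ltbp2, Lonrf1, Lonrf3, Cpeb2, Rnase2a, Mgl2, Ppa1 and Akr1e1. The other 26 lost it there, among them Ccrl2, Gpr137b, Sema4d, Cxcr4, Clec10a, Cd209d, Cd163, Fxyd2, Adamts12, Ednrb, Col5a1 and Postn. With the left-out control kept 12 of the 39 lost it, and with the actin term 9. With controls pooled over code series 11 of the 39 lost it. They were Atf3, Lonrf1, Lonrf3, Cpeb2, Usp2, Col5a1, Postn, Cdc25b, Foxm1, Akr1e1 and Mme. Their differences then included -0.29 for Foxm1, -0.37 for Cdc25b, 0.53 for Mme and 1.05 for Atf3. The differences of the genes described next kept their call without each array unless an array is named. This does not extend to each single response. Among those lost without at least 1 array were the calls of Gpnmb and Gadd45a at day 3 and of Rnase2a and Ltbp2 at day 18.

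Gpnmb had the largest called increase. It encodes a transmembrane glycoprotein found in lysosome-rich macrophages and osteoclasts. Its signals were 13780.5, 8625.3, 10450.4 and 13866.7 on the day 18 arrays, against 403.5, 234.5 and 257.0 on their controls. At day 3 it read 485.2, 885.7 and 1146.0, against 356.4, 245.7 and 476.0 on the controls. Every day 18 array lay far above every other array. The day 3 arrays also lay above all their controls, the lowest of them (485.2) only just. The response was 5.19 log2 units at day 18 and 1.13 at day 3, a difference of 4.06 ± 0.53 (SE, adjusted p = 9.14e-05).

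Clec4n, Cxcl16 and Ccrl2, genes of immune receptors and chemokines, were also called higher. Clec4n, also known as Dectin-2, is a lectin receptor for fungal sugars, and its signals were 3356.5, 2283.2, 2587.1 and 2878.9 at day 18, against 120.8, 184.3 and 191.1 on the controls. At day 3 they were 567.2, 656.5 and 715.8, against 124.7, 114.9 and 158.9 on the controls. It was thus already called higher at day 3 (2.09 log2 units) and stood at 3.89 at day 18, with a difference of 1.79 ± 0.30 (adjusted p = 0.00243) and no overlap between the treated groups. Cxcl16, a membrane-bound chemokine that also takes up oxidized lipoprotein, had 2351.3, 1615.7, 2067.0 and 2206.9 at day 18, against 345.3, 407.2 and 330.8 on the controls. Signals at day 3 were 653.3, 556.8 and 670.1, against 293.6, 394.9 and 399.5 on the controls. Its lowest day 18 array was above its highest day 3 array, and the difference was 1.67 ± 0.21 (adjusted p = 9.14e-05). Ccrl2, a receptor that presents the attractant chemerin without signalling itself, followed with 1957.2, 1205.0, 1761.5 and 2114.7 at day 18 and 149.9 to 191.0 on the controls. Its day 3 signals were 351.3, 330.9 and 576.4 and those of the controls 132.6 to 169.8, a difference of 1.93 ± 0.34 (adjusted p = 0.00356).

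Syngr1, Gpr137b and Fnip2 also had called increases. Syngr1, a membrane protein of small secretory vesicles first described in synapses, had 1834.2, 951.4, 1169.9 and 1682.5 at day 18, against 562.9, 326.7 and 375.0 on the controls. On the day 3 arrays it had 304.2, 375.5 and 342.2, against 665.3, 539.2 and 506.7 on the controls, so that all treated arrays lay above their controls at day 18 and below them at day 3. The difference was 2.37 ± 0.30 (adjusted p = 9.14e-05), and the day 3 decrease of -0.70 lost its call without day 3 control replicate 1. Gpr137b, a lysosomal membrane protein, read 2506.0 to 3707.1 at day 18 and 820.1 to 861.3 on its controls, while day 3 (902.5 to 1163.3) and its controls (717.4 to 984.4) overlapped. Its difference was 1.61 ± 0.28 (adjusted p = 0.00356), and reads of a near-identical pseudogene copy on the array cannot be told from it with certainty. Fnip2, a partner of folliculin at the lysosome, differed by 1.07 ± 0.19 (adjusted p = 0.005), with responses of 2.05 at day 18 and 0.98 at day 3.

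**Figure D3:**
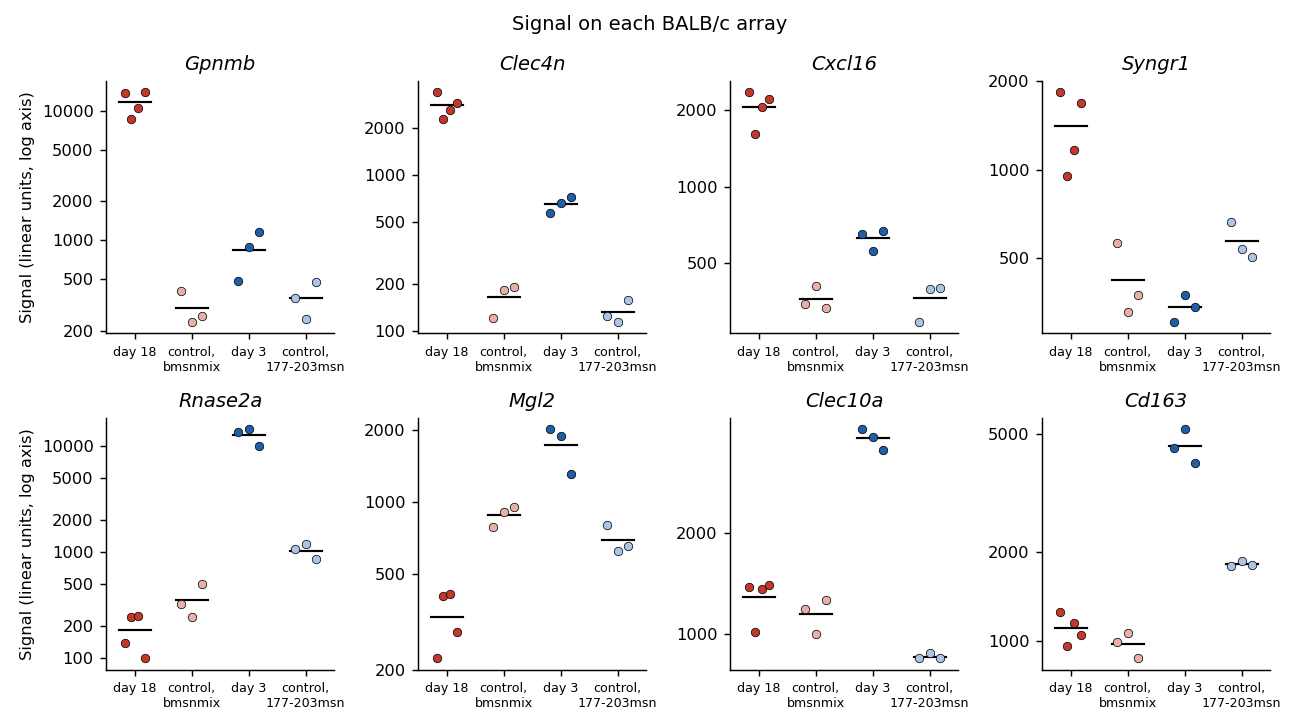
Signals of 8 genes on each of the 13 BALB/c arrays, by group, on log axes; bars are group means. Gpnmb, Clec4n, Cxcl16 and Syngr1 (upper row) are highest on the 4 day 18 arrays, and Rnase2a, Mgl2, Clec10a and Cd163 (lower row) are highest on the 3 day 3 arrays.

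Some genes known from lymphocytes were called higher at day 18, of which Cxcr4 and Sema4d held without each array. Cxcr4, the receptor for the chemokine Cxcl12 that guides lymphocytes and many other leukocytes, had 1477.5 to 2479.2 at day 18 and 247.5 to 311.7 on the controls. The day 3 signals were 769.3 to 993.4 and those of the controls 294.7 to 365.0, and the difference was 1.45 ± 0.28 (adjusted p = 0.0109). Sema4d, a semaphorin carried by T cells and other leukocytes, had responses of 2.65 at day 18 and 1.40 at day 3, a difference of 1.25 ± 0.21 (adjusted p = 0.00272).

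Cd4, the co-receptor of helper T cells that some macrophages also carry, read 176.3, 149.6, 178.6 and 169.7 at day 18, against 8.7, 7.4 and 14.2 on the controls. At day 3 it read 59.5, 11.0 and 19.1, against 7.4 to 10.6 on the controls. All day 3 values were below the median of all signals (102.4), and 1 of the 3 arrays stood above the others. The difference of 1.86 ± 0.38 (adjusted p = 0.0156) lost its call without day 3 replicate 2, where the adjusted p was 0.066.

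The remaining lymphocyte calls rested on more of the arrays. Il7r, the receptor for the lymphocyte growth factor interleukin-7, had 1984.5 to 2897.6 at day 18 and 248.0 to 342.1 on the controls, against 493.1 to 1086.8 at day 3 and 240.8 to 314.3 on the controls. Its difference of 1.65 ± 0.37 (adjusted p = 0.0264) lost its call without day 18 replicate 4, day 18 control replicate 3 or 4, day 3 replicate 1 or 2, or day 3 control replicate 2 or 3. Cd22, an inhibitory lectin of B cells, had 1119.4 to 2089.8 at day 18 and 327.0 to 634.4 on the controls, against 553.1 to 977.9 at day 3 and 395.6 to 719.5 on the controls. Its difference of 1.62 ± 0.35 (adjusted p = 0.0221) was lost without day 18 control replicate 3 or 4, day 3 replicate 1 or 2, or day 3 control replicate 2 or 3.

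Over whole lists, 2 of 20 T and NK cell genes (Cd4 and Il7r) and 1 of 19 B cell genes (Cd22) were called higher and none lower, with medians of 0.35 and 0.61 log2 units. Over all genes 0.425% were called higher and the median was -0.02. The mean of the B cell list was higher on every day 18 array (0.67 to 1.14 above controls) than on every day 3 array (0.18 to 0.61). For T and NK cells the arrays overlapped, at 0.92 to 1.19 at day 18 and 0.46 to 0.96 at day 3. Blnk, an adaptor of the B cell receptor, differed by 1.03 ± 0.26 (adjusted p = 0.0564), Cd3g of the T cell receptor complex by 1.00 ± 0.39 (adjusted p = 0.23) and Tnfsf13b, the B cell survival factor BAFF, by 0.73 ± 0.18 (adjusted p = 0.0561). These 3 did not pass the test.

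Gadd45a, Ltbp2, Il1a and Atf3 were called higher as well. Gadd45a, a growth-arrest gene induced by DNA damage, read 410.6 to 487.4 at day 18 and 247.2 to 265.0 on the controls, against 217.7 to 311.8 at day 3 and 365.1 to 391.7 on the controls. The treated arrays lay above their controls at day 18 and below them at day 3, and the difference was 1.28 ± 0.26 (adjusted p = 0.0127), with the 2 sets of controls also called different (-0.52). Ltbp2, which binds to microfibrils of the matrix, had 528.4 to 886.5 at day 18 and 268.5 to 444.6 on the controls, against 139.1 to 195.8 at day 3 and 291.0 to 503.5 on the controls. Its difference was 1.75 ± 0.32 (adjusted p = 0.00544).

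Il1a, the alarm cytokine interleukin-1 alpha, was the only one of 20 acute cytokine and chemokine genes whose difference was called. It read 136.7, 67.6, 88.5 and 79.9 at day 18, against 3.6, 2.7 and 2.0 on the controls. Signals at day 3 were 32.8, 22.6 and 7.5, against 3.4, 29.9 and 2.7 on the controls, where treated and untreated arrays overlapped. The difference of 1.72 ± 0.39 (adjusted p = 0.0312) was kept only without day 18 replicate 2 or 4, day 18 control replicate 1, day 3 replicate 1, or day 3 control replicate 1 or 3. Atf3, a stress-induced transcription factor, was the only one of 22 endoplasmic reticulum and unfolded protein genes called, at 1065.2 to 1582.6 at day 18 and 150.6 to 212.0 on the controls, against 524.5 to 677.3 at day 3 and 317.6 to 436.6 on the controls. Its difference of 1.87 ± 0.44 (adjusted p = 0.0396) was kept only without day 18 replicate 2 or 3, day 18 control replicate 1 or day 3 replicate 3.

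The largest called decrease was that of Rnase2a, a member of the eosinophil-associated ribonucleases that macrophages can also express. Its signals were 140.0, 246.1, 249.0 and 99.6 at day 18, against 322.2, 242.0 and 502.0 on the controls. At day 3 they were 13475.3, 14376.3 and 9894.5, against 1058.0, 1182.7 and 856.1 on the controls. The 3 day 3 arrays stood an order of magnitude above their controls, while at day 18 treated and untreated arrays overlapped. The response was -0.89 at day 18 and 3.57 at day 3, a difference of -4.46 ± 0.49 (adjusted p = 2.71e-05), and the day 18 controls were lower than the day 3 controls by a called -1.52. Probe sets of this family can take up signal from near-identical copies. Of 6 eosinophil markers on the array 2 passed the filter on dim signals and neither differed between responses by the test: Siglecf, a sialic acid receptor of eosinophils and some macrophages, gave -1.11 ± 0.36 (adjusted p = 0.136). Eosinophil markers summed to 646.6 to 847.8 at day 18 and 783.7 to 1161.8 on the controls, against 1385.3 to 1443.8 at day 3 and 1248.9 to 1708.2 on the controls, and their part in the result was not tested.

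A number of lectins and receptors, most of them listed here as genes of alternatively activated macrophages, were called lower at day 18 than at day 3. The name is used for the state that interleukin-4 and interleukin-13 induce, and a part of these cytokines in the result was not tested. Mgl2 and Clec10a are galactose-binding lectins of such macrophages and of dendritic cells. Mgl2 had 223.1, 405.4, 413.9 and 288.1 at day 18, against 791.4, 909.2 and 955.4 on the controls. Its day 3 signals were 2020.7, 1883.8 and 1314.0, against 806.4, 626.0 and 656.4 on the controls. It was therefore below every control at day 18 (-1.38) and above every control at day 3 (1.28), and the difference was -2.66 ± 0.32 (adjusted p = 6.28e-05).

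Clec10a had 1379.4, 1011.8, 1359.1 and 1398.7 at day 18, against 1189.4, 998.8 and 1259.8 on the controls. On the day 3 arrays it had 4059.5, 3841.7 and 3526.3, against 847.3, 876.5 and 846.9 on the controls. At day 18 treated and untreated arrays overlapped, and the difference was -1.96 ± 0.33 (adjusted p = 0.00306). Cd163, the scavenger receptor for haemoglobin, had 1257.0, 965.1, 1149.3 and 1049.0 at day 18, against 994.6, 1067.6 and 875.0 on the controls. The day 3 signals were 4488.0, 5181.9 and 3997.9, against 1787.2, 1867.9 and 1807.4 on the controls. Here too day 18 arrays overlapped their controls, which were themselves lower than the day 3 controls (-0.88, called), and the difference was -1.14 ± 0.22 (adjusted p = 0.0109). Cd209d, a lectin related to DC-SIGN, is not counted in the list given next. It read 211.1 to 242.8 at day 18 and 269.0 to 384.1 on the controls, against 638.8 to 1312.2 at day 3 and 258.6 to 445.1 on the controls, a difference of -1.98 ± 0.37 (adjusted p = 0.00669).

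Of the 16 tested members of the list of alternatively activated macrophage genes, 4 were called lower at day 18 than at day 3 (Mgl2, Clec10a, Cd163 and Chil3) and none higher. The background is 0.425% called lower over all genes. Differences were negative in 14 of 16, and the median was -0.91. The mean of the list stood at 1.34, 1.19, 1.31 and 1.34 log2 units above controls on the day 18 arrays and at 2.30, 2.36 and 2.19 on the day 3 arrays, with no overlap. Chil3, the chitinase-like protein Ym1, read 291.2 to 824.4 at day 18 and 4.4 to 7.6 on the controls, against 2155.2 to 4265.6 at day 3 and 0.8 to 12.4 on the controls. Its difference of -2.55 ± 0.59 (adjusted p = 0.0317) was kept only without day 18 replicate 1 or 4 or day 3 replicate 3. Retnla, the secreted resistin-like protein of these cells, gave -1.99 ± 0.60 (adjusted p = 0.109), with responses of -1.58 at day 18 and 0.41 at day 3. Arg1, the enzyme that splits arginine, had the largest responses of the list at day 18 and at day 3 (6.40 and 7.79), with 8919.2 to 17812.4 at day 18 and 44.3 to 242.4 on the controls, against 17476.7 to 20535.4 at day 3 and 53.3 to 73.3 on the controls. Its difference was -1.39, with a 95% interval of -3.01 to 0.24 and an adjusted p of 0.463.

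Genes of the cell division cycle rose at both times, and their responses at day 18 were mostly the smaller. Of 38 tested, 35 rose at day 18 and 37 at day 3, with medians of 1.36 and 2.58 log2 units, where 23.1% of all genes were called higher at day 18 and 22.5% at day 3. The difference was negative in 36 of 38, with a median of -1.15, and was called in 2, Foxm1 and Ccna2, beside 0.425% called lower over all genes. The list mean was 1.68, 1.19, 1.13 and 1.44 above controls on the day 18 arrays and 2.49, 2.42 and 2.36 on the day 3 arrays. Foxm1, a transcription factor that drives genes of mitosis, read 162.0, 153.7, 161.7 and 244.8 at day 18, against 129.3, 137.0 and 110.6 on the controls. At day 3 it read 249.9, 184.5 and 240.2, against 56.4, 28.6 and 9.7 on the controls. The treated groups overlapped and the controls did not, being higher for day 18 by a called 1.5 log2 units. Its difference of -1.79 ± 0.40 (adjusted p = 0.0268) was lost without day 18 control replicate 3, day 3 replicate 1, or day 3 control replicate 2 or 3.

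Ccna2, a cyclin of DNA synthesis and mitosis, had 590.6, 297.8, 342.2 and 378.8 at day 18, against 112.5, 204.1 and 148.2 on the controls. Signals at day 3 were 1271.9, 1189.5 and 1247.5, against 101.2, 142.9 and 157.3 on the controls, and the treated groups did not overlap. The difference of -1.77 ± 0.40 (adjusted p = 0.0275) was kept only without day 18 replicate 1 or 2, day 18 control replicate 1, day 3 replicate 3 or day 3 control replicate 3. Cdc25b, a phosphatase that switches on cyclin-dependent kinases and was not on the list, differed by -1.06 ± 0.21 (adjusted p = 0.0127), with 531.6 to 669.1 at day 18 and 758.2 to 802.6 at day 3. Its controls also differed, by 0.69, and its call held without each array.

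Many promoters of this list hold the cell cycle homology region, searched as TTTGAA on both strands from 250 bases before to 50 after the gene start. It was present in 17 of 35 promoters (48.6%) of the 33 list symbols that RefSeq sequences (GRCm38.p6) covered, and in 5878 of all 32851 promoters (17.9%). The next lines give the 150 bases upstream of the start of 3 genes with a match there and the largest decreases, with the match in capitals. They are Ube2c (chr2:164769779-164769928, plus strand), Mki67 (chr7:135716380-135716529, minus strand) and Cdc20 (chr4:118437344-118437493, minus strand), each 5′ to 3′ on the gene's strand. Ube2c passes ubiquitin to mitotic cyclins, Mki67 is the Ki-67 antigen of dividing cells and Cdc20 activates the anaphase-promoting complex.
Ube2c: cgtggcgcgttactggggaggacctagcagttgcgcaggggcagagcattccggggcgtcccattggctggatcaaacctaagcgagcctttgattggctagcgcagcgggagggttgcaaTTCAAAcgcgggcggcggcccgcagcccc
Mki67: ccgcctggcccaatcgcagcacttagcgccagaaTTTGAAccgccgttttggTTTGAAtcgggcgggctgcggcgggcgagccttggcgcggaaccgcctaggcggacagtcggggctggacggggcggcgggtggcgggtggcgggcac
Cdc20: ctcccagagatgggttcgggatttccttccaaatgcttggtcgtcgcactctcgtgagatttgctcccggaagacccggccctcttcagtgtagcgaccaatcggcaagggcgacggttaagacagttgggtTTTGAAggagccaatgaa
In Ube2c the match is on the opposite strand (TTCAAA), and Mki67 holds a pair of matches. The differences were -1.76 ± 0.53 for Ube2c (adjusted p = 0.108), -1.75 ± 0.60 for Mki67 (adjusted p = 0.161) and -1.57 ± 0.51 for Cdc20 (adjusted p = 0.135), none of which passed the test. Mki67 signals were 942.7 to 1705.7 at day 18 and 81.9 to 371.5 on the controls, against 2011.8 to 2510.1 at day 3 and 88.3 to 104.1 on the controls. A match describes the letters of the promoter and is no evidence of binding.

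Col5a1 and Postn, genes of the matrix, were also called lower. Col5a1, a fibrillar collagen chain, had 3400.8, 3028.6, 3081.3 and 2997.9 at day 18, against 2545.8, 4199.7 and 3716.4 on the controls. Its day 3 signals were 4702.3, 3921.6 and 4182.1, against 1529.6, 1746.0 and 1799.7 on the controls. Day 18 arrays lay within the range of their controls and day 3 arrays above theirs, while the 2 sets of controls differed by a called 1.01. The difference was -1.45 ± 0.24 (adjusted p = 0.00272). Postn, the matrix protein periostin, had 2812.5 to 3709.0 at day 18 and 5258.3 to 6498.0 on the controls, against 3695.4 to 4761.5 at day 3 and 4455.9 to 4835.1 on the controls, a difference of -0.78 ± 0.16 (adjusted p = 0.0127). Col5a1 and Postn were the 2 of 28 matrix and fibrosis genes called lower (0.425% over all genes), and none was called higher. With the BALB/c controls pooled neither was called (-0.44 for each, adjusted p = 0.204 for Col5a1 and 0.0637 for Postn), nor with the left-out control kept (-1.10 for Col5a1 and -0.37 for Postn). The list's median was -0.33, 21 of 28 were negative, and the list mean was 0.19 to 0.32 above controls at day 18 and 0.55 to 0.64 at day 3. Col1a1, the main chain of type I collagen, gave -0.91 ± 0.27 (adjusted p = 0.097).

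Outside the list, Adamts12, a secreted metalloprotease, read 278.6, 454.8, 378.9 and 324.4 at day 18, against 733.7, 1491.2 and 1022.4 on the controls. On the day 3 arrays it read 709.0, 700.2 and 734.6, against 592.5, 611.0 and 677.5 on the controls. It fell at day 18 (-1.49) and was close to its controls at day 3 (0.18), with a difference of -1.68 ± 0.27 (adjusted p = 0.00168). Ednrb, the endothelin B receptor of vessels and other cells, had 1547.8 to 2241.0 at day 18 and 1813.9 to 2170.8 on the controls, against 6616.7 to 7508.8 at day 3 and 2371.4 to 2545.7 on the controls. Its difference was -1.53 ± 0.28 (adjusted p = 0.00597). Ppa1, the cytosolic inorganic pyrophosphatase, read 2179.2 to 2969.4 at day 18 and 5869.5 to 7098.7 on the controls, against 3592.9 to 3815.9 at day 3 and 4205.5 to 4823.6 on the controls, a difference of -1.01 ± 0.16 (adjusted p = 0.00155).

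The acute-phase list had 1 call of 21, that of Itih4, a serum protein of the liver's acute phase that other tissues can make. It read 181.3, 231.2, 82.6 and 162.0 at day 18, against 94.8, 45.1 and 66.9 on the controls. The day 3 signals were 741.6, 644.0 and 370.2, against 4.9, 45.5 and 39.2 on the controls. The day 3 arrays stood apart from all others, and the difference of -2.54 ± 0.51 (adjusted p = 0.0127) lost its call without day 3 replicate 1 (adjusted p = 0.054). Saa1, serum amyloid A, gave -1.61 ± 0.50 (adjusted p = 0.122, with near-identical copies on the array), and haptoglobin (Hp) -0.92 ± 0.27 (adjusted p = 0.0976). The list mean was 1.46 to 1.68 above controls at day 18 and 1.83 to 1.94 at day 3. Differences in the list were split, with 11 negative and 10 positive and a median of -0.12. Under the alternatives that median ran from -0.26 to 0.19.

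Few genes moved in opposite directions at the 2 times. There were 23 such genes, in 19 of which the difference was called, 12 of them higher at day 18 and lower at day 3 and 7 the other way. Syngr1 and Mgl2, described above, are 1 of each kind, and their 2 sets of controls were not called different. Fxyd2, a regulatory subunit of the sodium pump, was of the second kind. It read 109.8, 182.7, 210.8 and 157.7 at day 18, against 299.4, 402.3 and 349.8 on the controls. At day 3 it read 640.0, 620.3 and 481.1, against 266.5, 356.9 and 267.7 on the controls. The groups overlapped at neither time, and the difference was -1.92 ± 0.38 (adjusted p = 0.0127). In 17 genes with a difference called higher the day 18 response was called higher and the day 3 response was not called, and in 18 with a difference called lower the day 3 response was called higher and the day 18 response was not called. A further 22 rose at both times and more at day 18, and 17 rose at both times and less at day 18.

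**Figure D4:**
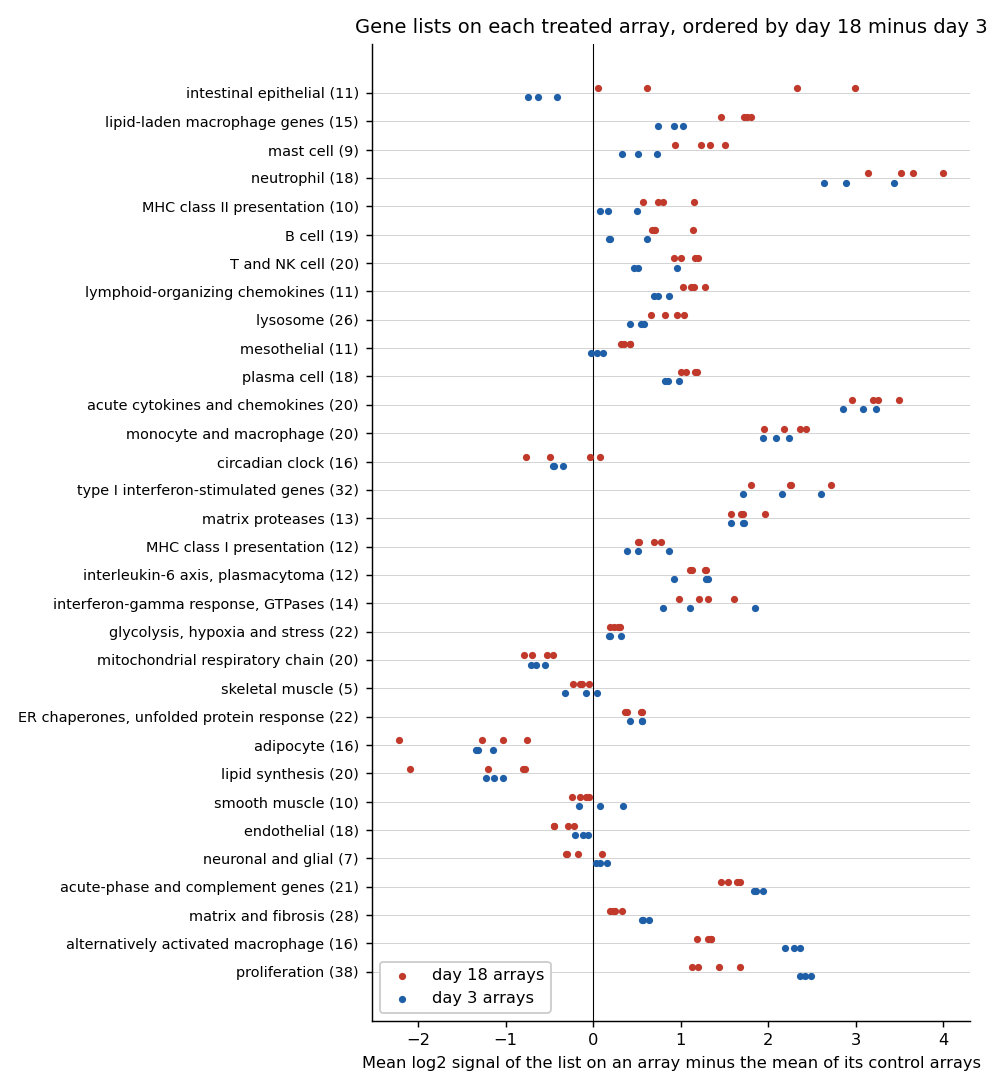
Mean log2 signal of each gene list on each treated BALB/c array minus the mean of its control arrays, ordered by the difference of group means, with day 18 arrays in red, day 3 arrays in blue and the number of genes in brackets; the acinar list is not drawn. Alternatively activated macrophage and proliferation genes are lower on all 4 day 18 arrays, lipid-laden macrophage, MHC class II and lysosome genes are higher on all 4, and interferon and monocyte lists overlap.

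Over 33 lists with at least 3 tested genes, all day 18 arrays were higher than all day 3 arrays in 9, all lower in 5, and the arrays overlapped in 19. Among single genes 3498 (27%) were apart in the same way, so such a separation was not rare. The 9 are the lipid-laden macrophage, lysosome, MHC class II, lymphoid-organizing, B cell, plasma cell, mast cell, mesothelial and intestinal epithelial lists, and the 5 are the proliferation, alternatively activated macrophage, acute-phase, matrix and endothelial lists. Among the lists that were higher, lipid-laden macrophage genes had 1 call of 15 (Gpnmb) and 12 positive differences, with means of 1.46 to 1.81 above controls at day 18 and 0.74 to 1.03 at day 3. Atp6v0d2, a proton pump subunit of macrophages and osteoclasts, had 1801.6 to 3366.4 at day 18 and 45.9 to 68.8 on the controls, against 186.5 to 341.0 at day 3 and 10.7 to 50.8 on the controls. Its difference of 2.53 ± 0.76 did not pass the test (adjusted p = 0.105). Mmp12, the elastase of macrophages, gave 1.74 ± 0.66 (adjusted p = 0.213) and Fabp5, a fatty acid carrier, 0.96 ± 0.24 (adjusted p = 0.0561).

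Lysosomal genes had positive differences in 23 of 26 and MHC class II genes in 9 of 10, with medians of 0.28 and 0.60 and no call in either. Hexa, a lysosomal hexosaminidase subunit, differed by 0.67 ± 0.17 (adjusted p = 0.0615) and Npc1, which exports cholesterol from lysosomes, by 0.73 ± 0.23 (adjusted p = 0.126). H2-Eb1, a class II chain, read 6703.2, 6550.3, 9166.2 and 6842.6 at day 18, against 4652.5, 4575.4 and 5006.3 on the controls. Signals at day 3 were 2926.4, 2494.6 and 3177.4, against 3431.5, 3652.7 and 3737.2 on the controls. Treated arrays lay above their controls at day 18 and below them at day 3, and the difference of 0.94 ± 0.28 had an adjusted p of 0.102. H2-Aa, another class II chain, gave 0.83 ± 0.28 (adjusted p = 0.149). At day 18, 7 of 10 class II genes rose, and at day 3, 2 of 10. Over all genes 23.1% were called higher at day 18 and 22.5% at day 3, so the day 3 count is near the background.

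Markers of other cell types differed between the arrays as well. Mast cell genes had a median difference of 0.89 with no call of 9, and summed to 5675.1 to 9132.4 at day 18 and 2622.0 to 3946.3 on the controls, against 3803.2 to 5076.1 at day 3 and 3100.6 to 3413.6 on the controls. Tpsb2, a mast cell tryptase with close copies, gave 1.82 ± 0.63 (adjusted p = 0.161) and Cpa3, the mast cell carboxypeptidase, 1.2 ± 0.54 (adjusted p = 0.311). Neutrophil genes rose in 16 of 18 at day 18 and 13 of 18 at day 3, with sums of 46201.6 to 78025.7 at day 18 and 2227.1 to 2575.8 on the controls, against 30488.8 to 47361.6 at day 3 and 1491.2 to 1676.5 on the controls. None of their differences was called, and 23.1% of all genes were called higher at day 18 and 22.5% at day 3. The granule proteins Ltf and Camp had responses of 3.66 and 3.44 at day 18 and 1.5 and 1.59 at day 3, with differences of 2.17 ± 1.21 (adjusted p = 0.453) and 1.85 ± 1.27 (adjusted p = 0.567). Intestinal epithelial genes, none of whose differences was called, had positive differences in all 11. They summed to 1430.3 to 10492.7 at day 18 and 903.8 to 1176.5 on the controls, against 1151.6 to 1383.1 at day 3 and 1302.3 to 2176.6 on the controls. Their median response was 1.57 at day 18 and -0.60 at day 3. Fabp2, the gut fatty acid carrier, read 218.3, 4259.9, 1215.0 and 10.4 on the 4 day 18 arrays, so 1 array had far more than the lowest, and its difference was 5.26 ± 2.03 (adjusted p = 0.221). The part of these cell types in the other results was not tested.

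The interferon signature was strong at both times. Of 32 type I interferon-stimulated genes 31 rose at day 18 (median 2.34) and 30 at day 3 (median 2.19). The shares called higher over all genes were 23.1% at day 18 and 22.5% at day 3. No difference between the responses was called in the list (median 0.11, members from -0.28 to 0.68). Oas3, a sensor of double-stranded RNA, read 2140.7, 1263.6, 1067.9 and 1238.2 at day 18, against 19.1, 15.6 and 13.5 on the controls. Its day 3 signals were 1630.4, 1022.9 and 1786.0, against 18.1, 11.5 and 18.0 on the controls. The treated groups overlapped, and the difference of -0.07 had a 95% interval of -1.16 to 1.01. Ifit1, which binds viral RNA caps, read 2853.4 to 7841.6 at day 18 and 411.7 to 763.7 on the controls, against 3278.6 to 7418.4 at day 3 and 549.2 to 729.0 on the controls, a difference of 0.20 with an interval of -0.61 to 1.02. Mndal, a nuclear DNA-binding protein of the interferon-inducible 200 family, gave 1.21 at day 18 and 1.10 at day 3 (difference 0.11, interval -0.69 to 0.92).

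The letters of the interferon-stimulated response element, searched as GAAANNGAAA on both strands in the same window, were present in 19 of 32 promoters (59.4%) of the 25 list symbols covered and in 1131 of all 32851 (3.44%). The 150 upstream bases are shown for the 3 genes with a match there and the largest day 18 responses, matches in capitals. They are Oas3 (chr5:120777660-120777809, minus strand), Ifit1 (chr19:34640739-34640888, plus strand) and Oas1a (chr5:120907526-120907675, minus strand), 5′ to 3′ from RefSeq on GRCm38.p6.
Oas3: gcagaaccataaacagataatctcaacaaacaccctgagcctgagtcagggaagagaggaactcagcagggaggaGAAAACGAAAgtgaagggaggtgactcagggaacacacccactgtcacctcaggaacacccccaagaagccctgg
Ifit1: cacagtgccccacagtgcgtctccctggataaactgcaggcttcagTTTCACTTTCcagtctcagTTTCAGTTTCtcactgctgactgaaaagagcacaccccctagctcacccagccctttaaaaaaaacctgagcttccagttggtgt
Oas1a: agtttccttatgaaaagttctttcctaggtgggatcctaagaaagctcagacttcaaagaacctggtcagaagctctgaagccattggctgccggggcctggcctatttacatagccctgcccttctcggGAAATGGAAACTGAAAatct
Ifit1 holds a pair of matches on the opposite strand, and in Oas1a a pair of matches overlap in 1 run of capitals. Oas1a, an oligoadenylate synthetase like Oas3, had responses of 2.90 at day 18 and 2.95 at day 3. The endoplasmic reticulum stress element (CCAAT, 9 bases of any kind, CCACG) was in 7 of 20 promoters (35%) of that list and in 39 of all (0.119%). Of its 22 genes 15 rose at day 18 and 13 at day 3, beside 23.1% and 22.5% of all genes.

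**Figure D5:**
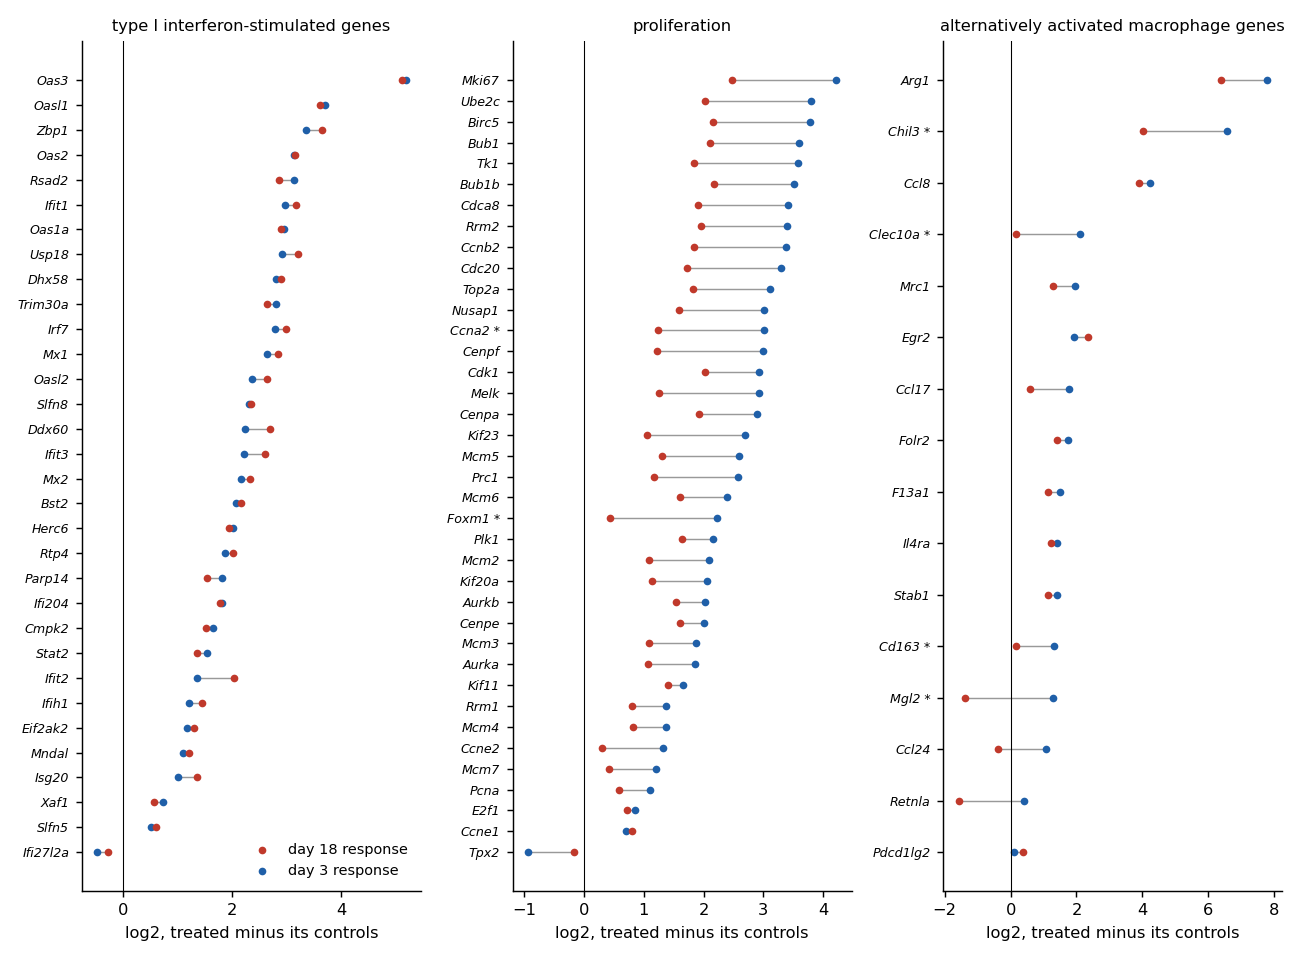
Day 18 (red) and day 3 (blue) responses of each tested gene of 3 lists, in log2 units of treated minus control, joined by a line; an asterisk marks a called difference. The 2 responses nearly coincide for the 32 interferon-stimulated genes, the day 18 response is the smaller in 36 of 38 proliferation genes, and Mgl2, Clec10a, Cd163 and Chil3 carry the calls among 16 alternatively activated macrophage genes.

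Other parts of the response were present at both times, with no called difference in the lists given next except that of Il1a. Interferon-gamma response genes rose in 13 of 14 at day 18 and 12 of 14 at day 3, and matrix proteases in 10 and 11 of 13. Monocyte and macrophage genes rose in 19 and 17 of 20, and acute cytokines and chemokines in 18 and 16 of 20. Over all genes 23.1% were called higher at day 18 and 22.5% at day 3. Mpeg1, a pore-forming protein of macrophages, gave 3.18 at day 18 and 2.10 at day 3 (difference 1.08 ± 0.29, adjusted p = 0.0737). Adipocyte genes fell in 15 of 16 at both times and mitochondrial respiratory chain genes in 19 of 20 at both times. Lipid synthesis genes fell in 16 of 20 at day 18 and 14 of 20 at day 3. The median differences of these 3 lists lay between -0.10 and 0.02. Over all genes 25.4% were called lower at day 18 and 22% at day 3.

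Beside Arg1, strong responses at both times were those of Cxcl5, a neutrophil attractant (6.63 at day 18, 6.69 at day 3), Acod1, which makes itaconate in activated macrophages (6.72 and 5.37 at the same times), and the calprotectin subunits S100a8 (5.61 and 6.04) and S100a9 (5.48 and 6.08). The intervals of the differences were -1.41 to 1.27 for Cxcl5, -1.80 to 0.95 for S100a8 and -2.02 to 0.81 for S100a9. For these genes differences of up to several-fold are not resolved. The interval for Acod1, 0.37 to 2.34, was wholly positive, but it is not adjusted for multiple testing and the difference was not called. Among decreases, Timp4, an inhibitor of metalloproteases in fat, stood at -2.96 at day 18 and -2.88 at day 3, and Pck1, the gluconeogenic enzyme that also serves glycerol synthesis in fat, at -2.21 and -2.39.

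Genes tied to plasmacytoma growth showed no called difference except 1 plasma cell gene. Il6 read 782.0, 746.9, 583.3 and 1058.6 at day 18, against 3.3 to 21.7 on the controls. On the day 3 arrays it read 620.3, 177.6 and 533.3, against 7.1, 2.5 and 10.2 on the controls. It rose by 4.49 at day 18 and 3.75 at day 3, and the difference of 0.75 had an interval of -0.37 to 1.86 (adjusted p = 0.594). Myc, the oncogene that plasmacytomas carry in a translocation, gave 0.52 at day 18 and 0.89 at day 3 (difference interval -0.80 to 0.06), and Mtor, the growth kinase, -0.48 and -0.22 (interval -0.54 to 0.02).

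Sdc1, syndecan-1, marks plasma cells and epithelia and was the only call among 18 plasma cell genes. It had 1083.3 to 1679.1 at day 18 and 421.6 to 453.6 on the controls, against 616.5 to 720.8 at day 3 and 366.7 to 499.6 on the controls. Its difference of 0.91 ± 0.21 (adjusted p = 0.0292) was kept only without day 18 replicate 1 or 2, day 18 control replicate 1, day 3 replicate 3, or day 3 control replicate 1 or 3. Igha, the heavy chain of immunoglobulin A, had 19591.8, 16726.8, 18836.5 and 21715.1 at day 18, against 8040.6, 1298.1 and 1882.6 on the controls, among which 1 array stood apart. The day 3 signals were 5470.2, 7167.6 and 5620.6, against 3370.6, 5099.6 and 4521.6 on the controls, and the difference of 2.31 ± 0.72 did not pass the test (adjusted p = 0.122). Ighm, the heavy chain of immunoglobulin M, ran the other way, with responses of 1.08 at day 18 and 1.87 at day 3 (difference -0.80 ± 0.40, adjusted p = 0.377). Immunoglobulin probe sets share sequence between genes, so their assignment is uncertain.

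In some of the calls the 2 sets of controls were far apart. Usp2, a deubiquitinase under circadian control, read 695.2, 650.6, 1040.0 and 1063.8 at day 18, against 591.4, 618.4 and 522.2 on the controls. At day 3 it read 1249.5, 1211.8 and 1318.5, against 1910.6, 2311.2 and 2170.7 on the controls. All day 18 arrays were thus lower than all day 3 arrays, while the difference of responses was 1.27 ± 0.22 (adjusted p = 0.00372), with controls apart by a called -1.84. For Lonrf1 and Cpeb2, too, treated arrays were lower at day 18 than at day 3 on average. Lonrf1, a ubiquitin ligase, gave 1.61 ± 0.20 (adjusted p = 6.35e-05) with controls apart by -2.23. Cpeb2, an RNA-binding regulator of translation, gave 1.71 ± 0.30 (adjusted p = 0.00356) with controls apart by -2.08. Lonrf3, a relative of Lonrf1, gave 2.23 ± 0.31 (adjusted p = 0.000355) with controls apart by -1.5, while its treated arrays were higher at day 18 (690.3 to 1222.8) than at day 3 (434.7 to 647.0). With the BALB/c controls of both sets pooled, the differences turned to -0.57 for Usp2, -0.61 for Lonrf1 and -0.37 for Cpeb2, none of them called, and Lonrf3 stayed positive at 0.73 without a call (adjusted p = 0.15). Akr1e1, an aldo-keto reductase, gave -1.02 ± 0.16 (adjusted p = 0.00154) with controls apart by 0.97. With controls pooled its difference was -0.05 (adjusted p = 0.894). Per2, a core clock gene, had controls apart by -2.83 and a difference of responses of 0.34 ± 0.27 (adjusted p = 0.637). Of 16 clock genes none had a called difference of responses, while 3 were called higher and 7 lower in the day 18 controls than in the day 3 controls. Over all 110 calls, the treated arrays alone differed in the direction of the call in 97 and in the other direction in 13.

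Whether BALB/c mice differ from DBA mice in the change between the times was tested directly, as the BALB/c difference minus the DBA difference. It was called in 104 genes (0.803%), 16 higher and 88 lower, of which 7 were among the 110. In DBA mice the difference of responses was itself called in 1238 genes (9.56%), and 48 of the 110 BALB/c calls were called the same way there. The actin ratio of the treated DBA arrays was 1.16 to 1.23 at day 18 and 1.84 to 2.01 at day 3. On the DBA controls it was 1.26 to 1.35 for day 18 and 2.15 to 2.87 for day 3. The clock measure of the treated DBA arrays was -0.90 to -0.29 at day 18 and 3.70 to 4.30 at day 3. On the DBA controls it was -1.25 to -1.13 for day 18 and 5.15 to 5.72 for day 3. Xist read 72.5, 95.1 and 14911.6 on the DBA day 18 arrays and 22918.4 to 23556.2 on those of day 3. The high-Xist alternative left out BALB/c arrays only. The part of these measures in the contrast was not tested beyond the alternatives given in the closing section. At day 18 the strains were in different code series, each with its own controls, while at day 3 they were in the same one. Strain and code series thus coincide at day 18 and cannot be separated there. The part of the code series in the contrast was not tested. The interferon-stimulated genes stood out by count: 23 of 32 were called lower in the strain contrast (median -2.40), 31 of 32 were called higher at day 18 than at day 3 in DBA (median 2.48), and none was called in BALB/c. Without DBA day 18 replicate 3 the 23 became 14, with a median of -2.25. Ifit1 changed by 0.20 between the times in BALB/c and by 3.90 in DBA, where its response was 4.28 at day 18 and 0.38 at day 3 (contrast -3.70, adjusted p = 0.00151). Irf7, the transcription factor that sustains interferon production, changed by 0.21 and 3.99 in the 2 strains (contrast -3.78, adjusted p = 0.00796). Usp18, which removes ISG15 and damps the receptor, changed by 0.29 and 4.14 (contrast -3.85, adjusted p = 0.000668), and Slfn1, a schlafen of T cells and macrophages, by -0.57 and 3.24 (contrast -3.81, adjusted p = 0.000785).

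Outside the interferon genes, Rnase2a differed between strains by -3.58 (adjusted p = 0.0147), with a change of -4.46 in BALB/c and -0.87 in DBA. Chil3 changed by -2.55 in BALB/c and by 1.31 in DBA (contrast -3.86, adjusted p = 0.0267), a call lost without DBA day 18 replicate 3, DBA day 18 control replicate 2, BALB/c day 3 control replicate 1 or DBA day 3 replicate 3. Mme, the peptidase neprilysin, changed by 1.14 in BALB/c and -0.56 in DBA (contrast 1.71, adjusted p = 0.0156). The BALB/c change of Mme lost its call without day 18 control replicate 4 or day 3 control replicate 3. Prg4, the lubricin of mesothelial and joint surfaces, changed by 0.74 in BALB/c and -0.87 in DBA (contrast 1.61, adjusted p = 0.0155). Oas3 (contrast -3.62, adjusted p = 0.021), Oas1a (-2.55, adjusted p = 0.0041) and Akr1e1 (-1.08, adjusted p = 0.0224) were also called, Oas3 not without DBA day 18 replicate 3. For Gpnmb the contrast was 0.97 (adjusted p = 0.59), for Clec4n 0.73 (adjusted p = 0.44), for Cxcl16 -0.06 (adjusted p = 0.958), for Mgl2 -1.32 (adjusted p = 0.182) and for Clec10a -1.41 (adjusted p = 0.174), so a difference between the strains is not shown for them.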

How the data were processed

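Mesenteric RNA was hybridised to Affymetrix 430 2.0 arrays, each holding 1 sample. TRIzol extraction, RNeasy cleanup and MessageAmp II amplification are given per the labels' protocols. The authors deposited linear probe set intensities, made with GCOS and MAS5 per the submitters' processing notes (no version is given in the sources used here), which scale each array. The deposited intensities have a 2% trimmed mean of 500.003, and 13 values are 0. The series text names an ANOVA in Partek as the authors' test. The number of arrays limits the precision.

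Groups came from strain, agent, time and title code; replicates are numbered by accession, as names without further meaning. The platform annotation gave 34958 of 45101 probe sets exactly 1 symbol, while 932 had several and 9211 had none. The 26913 probe sets brighter than the overall median (102.4) on 3 or more arrays were kept. They cover 12947 of 18194 genes, and where a gene had more than 1 (6015 genes) the brightest was tested. All 31 arrays used (21 residual degrees of freedom) entered 1 model of log2(intensity + 24.7), the offset being the 25th percentile, which understates changes of dim genes. The fit used limma 3.58.1 (R 4.3.3), with the prior variance following intensity, two-sided tests and Benjamini-Hochberg adjustment over all genes of a contrast. The fit was tested on simulated data. The DBA and F1 arrays share in the estimate of spread.

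The members, gene lists and tests were chosen with earlier results of these data known, so a list's count is not independent support. Of the 663 listed symbols 600 were matched on the array and 562 tested. Named genes were taken by a rule from the largest increases and decreases with arrays that do not overlap, from each pattern over the 2 times, from each list by largest difference, and from the control and strain contrasts; not every gene the rule takes is given, and a few others, such as Blnk, Tnfsf13b and Oas1a, were named after their values were seen. Alternatives changed the offset, filter, scaling, arrays, controls, variance model, probe set choice and covariates.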

Additional observations from a re-analysis of the deposited data

Results flagged for a closer look

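In 84 genes the 4 day 18 arrays were checked for 1 array far from the others by Dixon's test, and 3 were found, where chance gives about 1 in 20. They were Clec10a on replicate 2 (1011.8), Foxm1 on replicate 4 (244.8) and H2-Eb1 on replicate 3 (9166.2).

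In 11 of the genes described, the change between the times differed between BALB/c and DBA mice by the test of that difference, given here as the BALB/c change minus the DBA change in log2 units. It was negative for the interferon-stimulated genes Usp18 (-3.85), Slfn1 (-3.81), Irf7 (-3.78), Ifit1 (-3.70), Oas3 (-3.62) and Oas1a (-2.55), and for Chil3 (-3.86), Rnase2a (-3.58) and Akr1e1 (-1.08). It was positive for Mme (1.71) and Prg4 (1.61). At day 18 the strains were in different code series, so strain and code series cannot be separated there.

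The BALB/c control that was left out had a summed signal of pancreatic acinar markers of 1.91e+06, above that of every array used.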

How the results depend on the processing

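Among the alternatives, the count of 110 genes that differ between the responses stayed within 1.5 times under offset, filter, scaling, probe set, trend and robust settings, with 13 BALB/c arrays alone, and with terms for acinar markers, Xist or clock genes. It was 47 with the left-out control kept, 2051 with controls pooled over code series, 559 with array weights, and, chosen after seeing the data, 55 with a beta-actin ratio term and 36 with Xist-high arrays only. Leaving out 1 array gave 53 to 160, with a fall of over 1.5 times without day 18 control replicate 3 (66) or 4 (60), day 3 replicate 1 (53) or 2 (59), or day 3 control replicate 2 (69) or 3 (66). The strain contrast (104) became 33, 786, 889 and 21 with the left-out control kept, controls pooled, array weights and Xist-high arrays only, and 37 (without DBA day 18 replicate 3) to 296 (without DBA day 18 replicate 1) with 1 array left out. Xist-high arrays alone gave 4002 genes at day 18 and 1663 between controls, and the control contrast gave 16 genes with the actin term and 926 with the clock term. Median centring turned the control contrast to 1072 higher and 2547 lower. With pooled controls the difference was -0.61 for Lonrf1, -0.37 for Cpeb2 and -0.57 for Usp2. Day 18 responses then were -0.34 for Lonrf1, -0.43 for Cpeb2 and -0.39 for Usp2, and day 3 responses 0.27 for Lonrf1, 0.18 for Usp2, -0.14 for Akr1e1 and 0.72 for Per2. With the left-out control kept, Itih4 at day 18 was -0.42. The cause was not tested. The median difference stayed negative for proliferation (-1.38 to -0.59) and alternatively activated macrophage genes (-0.995 to -0.53), positive for lysosomal (0.15 to 0.34) and MHC class II genes (0.30 to 0.81), and ran from -0.09 to 0.42 for interferon-stimulated genes, of which 7 to 31 were called lower in the strain contrast. No paired analysis was possible because the labels give the arrays no shared replicate numbers. Dim signals, such as Cd4 and Il1a, are limited by the offset.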
